A study of Homo sapiens with 6 samples.

Results

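The genes considered here are 9 genes of osmolyte uptake and cell volume control among the 57500 genes counted in HepG2 cells, an established human hepatocellular carcinoma line. They are the osmolyte carriers SLC6A12, SLC5A3 and SLC6A6, the sorbitol-forming enzyme AKR1B1, the transcription factor NFAT5, the kinases SGK1 and WNK1, and the channel subunits LRRC8A and LRRC8D. The 9 genes were chosen by their role with values of this same comparison in view, so their differences between the groups are given as a description, with no p-value. Which of them passed a threshold set over all genes is stated as a count beside the share of all genes that did, and nothing is read from it. Wild-type cells were incubated for 24 h with vehicle (3 libraries) or with 10 mM glycine (3 libraries). Glycine was added to fresh culture medium. By the paper, the standard medium of the vehicle already contains glycine at a lower concentration, so the vehicle is not free of it. The osmolality of either medium is not given in the sources used here. The replicates are described as separate experiments of 1 line, so the spread below is that between cultures of the same line.

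Cells keep their volume by balancing inorganic ions and small organic solutes, the osmolytes, against the medium. Betaine, myo-inositol and taurine enter through sodium-coupled carriers, and sorbitol is made from glucose inside the cell. In hypertonic medium NFAT5, also called TonEBP, is known to activate the genes of these carriers and of aldose reductase through the tonicity element TonE, a motif that begins with TGGAAA. In swollen cells, anions and organic osmolytes leave through the volume-regulated anion channel, which is built from LRRC8A and other LRRC8 proteins. WNK1 is a kinase that responds to chloride and crowding and acts on cation-chloride cotransporters, and SGK1 is a kinase whose transcript is induced by hyperosmotic stress and glucocorticoids. The liver takes up glycine, taurine and betaine and is a main site of betaine metabolism.

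The libraries held between 31795489 and 58815986 counts, so that 1 count was worth between 0.017 and 0.0315 CPM (counts per 1000000 counts of the library). Each of the 9 genes had at least 235 counts in every library, and all 9 passed the filter on low counts, as did 15492 genes in all. Of 10 hepatocyte markers, all were detected, with a summed level of 29265 to 33774 CPM in the vehicle libraries and 25338 to 29575 CPM in the glycine libraries, and 2 of them, APOA1 and TTR, were called lower. Of 8 markers of blood, endothelial, fibroblast and bile duct cells, 6 passed the filter, PTPRC and COL1A2 were near 0 (0.0466 and 0.0851 CPM as vehicle means), and all but PDGFRB had group means under 5 CPM. CD68 and COL1A1 were called higher, and VWF and PDGFRB lower, the last from 26.7 to 17.1 CPM. VWF passed the filter only through the vehicle libraries, so its direction was fixed and nothing is read from its call. The summed fibroblast list, carried by PDGFRB, was 27.1 to 30.2 CPM with vehicle and 21.0 to 22.2 CPM with glycine, and the part of these markers in the results was not tested.

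In outline, the 3 carriers and the enzyme were lower in every glycine library than in any vehicle library, and the channel subunits and WNK1 overlapped between the groups. The betaine carrier SLC6A12 was at 20.2% of its vehicle mean, AKR1B1 at 51.8%, the myo-inositol carrier SLC5A3 at 54.8% and the taurine carrier SLC6A6 at 72.2%. SGK1 was at 86.0% and NFAT5 at 83.4%, the latter with overlapping groups. WNK1, LRRC8A and LRRC8D were at 98.3%, 105% and 98.9%. In bulk RNA, fewer cells with a transcript and less of it per cell cannot be told apart.

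**Figure D1:**
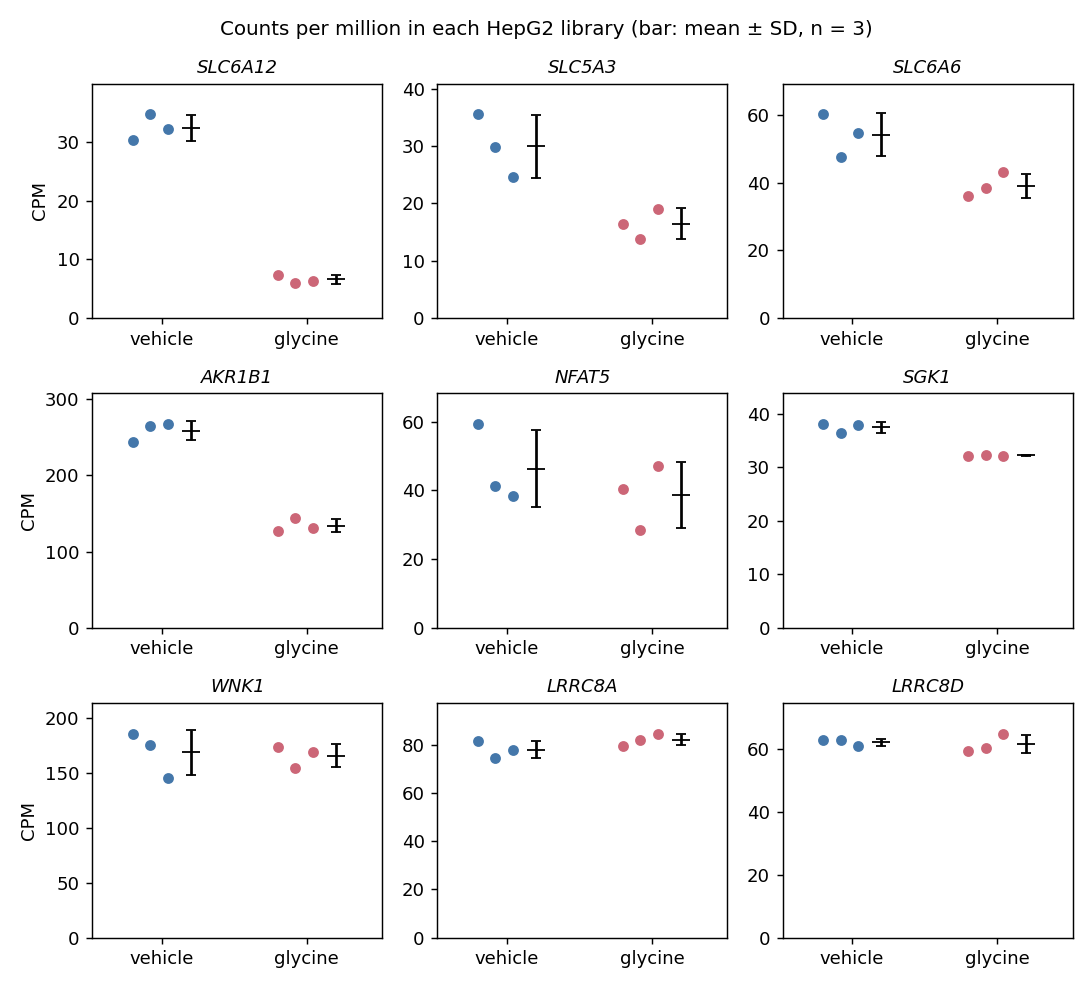
CPM of the 9 genes in each library, with vehicle in blue, glycine in red, and the mean ± SD of the 3 libraries of a group in black. Each vertical axis starts at 0 and has its own scale. The groups are separate for SLC6A12, SLC5A3, SLC6A6, AKR1B1 and SGK1, and overlap for NFAT5, WNK1, LRRC8A and LRRC8D.

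Before the values, the sequence in front of 3 of the genes is shown, because TonE is the motif through which NFAT5 is known to act. RefSeq windows on GRCh38.p14, of 250 bases before to 50 bases after a transcription start, were at hand for 6 of the 9 genes (11 windows). SLC6A12, SLC6A6 and NFAT5 had no window in the table used. The 250 bases before the start are printed 5′ to 3′ on the strand of the gene for SLC5A3 (chr21:34073328-34073577, plus strand), for the more downstream of both AKR1B1 starts (chr7:134459101-134459350, minus strand) and for WNK1 (chr12:752329-752578, plus strand). SLC5A3 and AKR1B1 stand for the genes that were lower with glycine, and WNK1 is the gene with a match. Capitals mark a match to TGGAAA or to its reverse complement.
SLC5A3: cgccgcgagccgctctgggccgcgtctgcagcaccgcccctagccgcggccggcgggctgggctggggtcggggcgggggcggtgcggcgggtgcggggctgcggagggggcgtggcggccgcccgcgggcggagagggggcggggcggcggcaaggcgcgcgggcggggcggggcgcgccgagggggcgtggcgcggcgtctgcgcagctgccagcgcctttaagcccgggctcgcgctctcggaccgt
AKR1B1: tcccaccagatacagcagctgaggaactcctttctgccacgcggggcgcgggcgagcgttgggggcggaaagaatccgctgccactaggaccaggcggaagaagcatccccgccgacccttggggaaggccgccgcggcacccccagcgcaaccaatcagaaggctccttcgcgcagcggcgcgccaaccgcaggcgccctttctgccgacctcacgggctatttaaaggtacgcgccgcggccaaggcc
WNK1: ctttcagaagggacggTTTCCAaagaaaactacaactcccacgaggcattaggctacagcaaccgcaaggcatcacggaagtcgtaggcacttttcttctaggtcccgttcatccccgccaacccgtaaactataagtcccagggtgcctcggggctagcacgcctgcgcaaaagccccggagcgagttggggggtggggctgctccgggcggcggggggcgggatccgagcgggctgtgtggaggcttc
The SLC5A3 sequence is rich in G and C (84.8%, against 68.0% for AKR1B1 and 61.6% for WNK1) and holds 46 CG dinucleotides, against 28 and 19. TGGAAA, read on both strands, occurred in 1 of the 11 windows, that of WNK1, where the match begins 234 bases before the start and lies on the other strand. Over all 35116 windows of 300 bases in the table, 7285 (20.7%) held TGGAAA. A longer TonE pattern, which contains TGGAAA, occurred in none of the 11 windows and in 436 of all windows (1.24%). These counts hold for that pattern alone. Other forms of the full element were not counted, so 1.24% is not the share of windows with any TonE. A match or its lack in these windows describes the letters only, and TonE elements farther from the start were not searched.

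SLC6A12, the sodium- and chloride-dependent carrier of betaine and GABA, lies on chromosome 12 (190077 to 214570, minus strand, GRCh38) and had by far the largest difference of the 9. Its level was 30.3, 34.8 and 32.3 CPM in the vehicle libraries and 7.39, 5.92 and 6.39 CPM in the glycine libraries. The groups were widely separated, with every glycine library far below the lowest vehicle library. The means were 32.4 ± 2.23 and 6.57 ± 0.753 CPM (SD, n = 3), a level 4.94 times as high with vehicle and a log2 difference of -2.33 ± 0.096 (SE). In the order of all 15492 tested genes from the largest fall, SLC6A12 stood at place 6. An antisense gene, SLC6A12-AS1, overlaps 1.12% of its exon length and was at or under 0.112 CPM in every library. A close relative and neighbour on the chromosome, the GABA carrier SLC6A13, was too low to test, at or under 0.251 CPM in every library.

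SLC5A3 carries myo-inositol into the cell with sodium. It lies on chromosome 21 (34073570 to 34106262, plus strand) inside the span of MRPS6, a mitochondrial ribosomal protein gene that shares its first exon. SLC5A3 was at 35.6, 29.9 and 24.6 CPM with vehicle and, in the glycine libraries, at 16.5, 13.7 and 19.1 CPM. The groups did not overlap, although the vehicle libraries spread widely, with a mean of 30.0 ± 5.49 CPM against 16.4 ± 2.68 CPM (SD, n = 3). The log2 difference was -0.89 ± 0.13 (SE). MRPS6 itself, picked out after its values were seen because it starts beside SLC5A3, was at 22.7 ± 1.59 and 20.1 ± 0.703 CPM, and its log2 difference of -0.19 ± 0.075 did not pass (adjusted p = 0.115, edgeR quasi-likelihood test). Shared exons cover 2.36% of the exon length of SLC5A3, and 0.68% of the 100-base windows of its transcript also occur in other genes.

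SLC6A6 is the carrier of taurine, an abundant osmolyte of liver cells. On chromosome 3 (14402576 to 14489349, plus strand), it was counted at 60.4, 47.7 and 54.8 CPM with vehicle. With glycine it was at 36.0, 38.4 and 43.1 CPM. The highest glycine library was below the lowest vehicle library, by a smaller margin than for SLC6A12. The means were 54.3 ± 6.36 and 39.2 ± 3.59 CPM (SD, n = 3), with a log2 difference of -0.48 ± 0.086 (SE).

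AKR1B1, aldose reductase, turns glucose into the osmolyte sorbitol. It was the most abundant of the 9 genes and lies on chromosome 7 (134442350 to 134459284, minus strand). Its vehicle levels were 244, 264 and 267 CPM, and its glycine levels 127, 144 and 131 CPM. The groups were far apart against their spread, with means of 258 ± 12.6 and 134 ± 8.60 CPM (SD, n = 3) and a log2 difference of -0.96 ± 0.071 (SE). No 100-base window of its transcript occurs in another gene. Its relative on the same chromosome, AKR1B10, a reductase of retinal and other aldehydes, was picked out after its values were seen. AKR1B10 fell from 291 ± 35.7 to 123 ± 19.6 CPM (log2 -1.26 ± 0.12, adjusted p = 1.24e-05, edgeR).

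NFAT5, the tonicity-responsive factor itself, lies on chromosome 16 (69565094 to 69704666, plus strand). It was at 59.3, 41.3 and 38.4 CPM with vehicle and at 40.3, 28.4 and 47.2 CPM with glycine. The groups overlapped, since glycine library 3 was above vehicle libraries 2 and 3, and vehicle library 1 was the highest of all. The means were 46.3 ± 11.3 and 38.6 ± 9.47 CPM (SD, n = 3). The log2 difference was -0.28 ± 0.17 (SE), with a 95% interval from -0.61 to 0.05. Leaving out vehicle library 1 gave -0.08, and leaving out glycine library 3 gave -0.46. The annotation places other genes over 10.1% of the exon length of NFAT5, 9.68% on the same strand, and 11.2% of its 100-base windows recur in another gene. ENSG00000260772, among these overlapping genes, had 0 counts in every library. How reads over both genes were counted is not known, so this does not show that NFAT5 lost no reads there.

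SGK1, on chromosome 6 (134169246 to 134318112, minus strand), had the tightest replicates of the 9. Its vehicle libraries were at 38.1, 36.3 and 37.9 CPM and its glycine libraries at 32.1, 32.4 and 32.2 CPM. The small gap exceeded the spread of either group, with means of 37.4 ± 0.980 and 32.2 ± 0.150 CPM (SD, n = 3) and a log2 difference of -0.23 ± 0.062 (SE). In the fit over all genes SGK1 was among the genes called lower, but no longer without vehicle library 1 or 3 or without any 1 of the glycine libraries, where its log2 difference stayed between -0.24 and -0.23. WNK1, on chromosome 12 (752593 to 911452, plus strand), was at 186, 175 and 146 CPM with vehicle and at 174, 154 and 170 CPM with glycine. Its groups overlapped widely, and the log2 difference was -0.04 ± 0.086 (SE), with a 95% interval from -0.21 to 0.13. The sign was not stable, since leaving out vehicle library 1 gave 0.02.

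LRRC8A, the subunit that every volume-regulated anion channel needs, lies on chromosome 9 (128882112 to 128918039, plus strand). It was at 81.4, 74.5 and 77.7 CPM with vehicle and at 79.6, 82.1 and 84.4 CPM with glycine. These groups overlapped, with a log2 difference of 0.06 ± 0.060 (SE) and a 95% interval from -0.06 to 0.18. LRRC8D, on chromosome 1 (89821014 to 89936611, plus strand), is the subunit that favours the passage of taurine and other uncharged osmolytes. It was at 62.8, 62.9 and 61.0 CPM with vehicle and at 59.5, 60.3 and 64.9 CPM with glycine. Here too the groups overlapped, and the log2 difference was -0.03 ± 0.062 (SE), with a 95% interval from -0.15 to 0.09. Another gene lies over 6.78% of its exon length and was at or under 0.017 CPM, which does not show that LRRC8D lost no reads there.

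In all, 5 of the 9 genes were called lower by the edgeR quasi-likelihood test over all tested genes (SLC6A12, AKR1B1, SLC5A3, SLC6A6 and SGK1) and 0 were called higher, with 4 not called. Over all tested genes 1013 were called lower (6.54%) and 1040 higher (6.71%). In 5 of the 9 genes every glycine library was below every vehicle library, against 12.9% of all tested genes, and in 0 it was above, against 18.9%. These shares are background, since the same contrast was in view when the genes were chosen. The median log2 difference was -0.28 over the 9 genes and 0.003 over all tested genes.

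**Figure D2:**
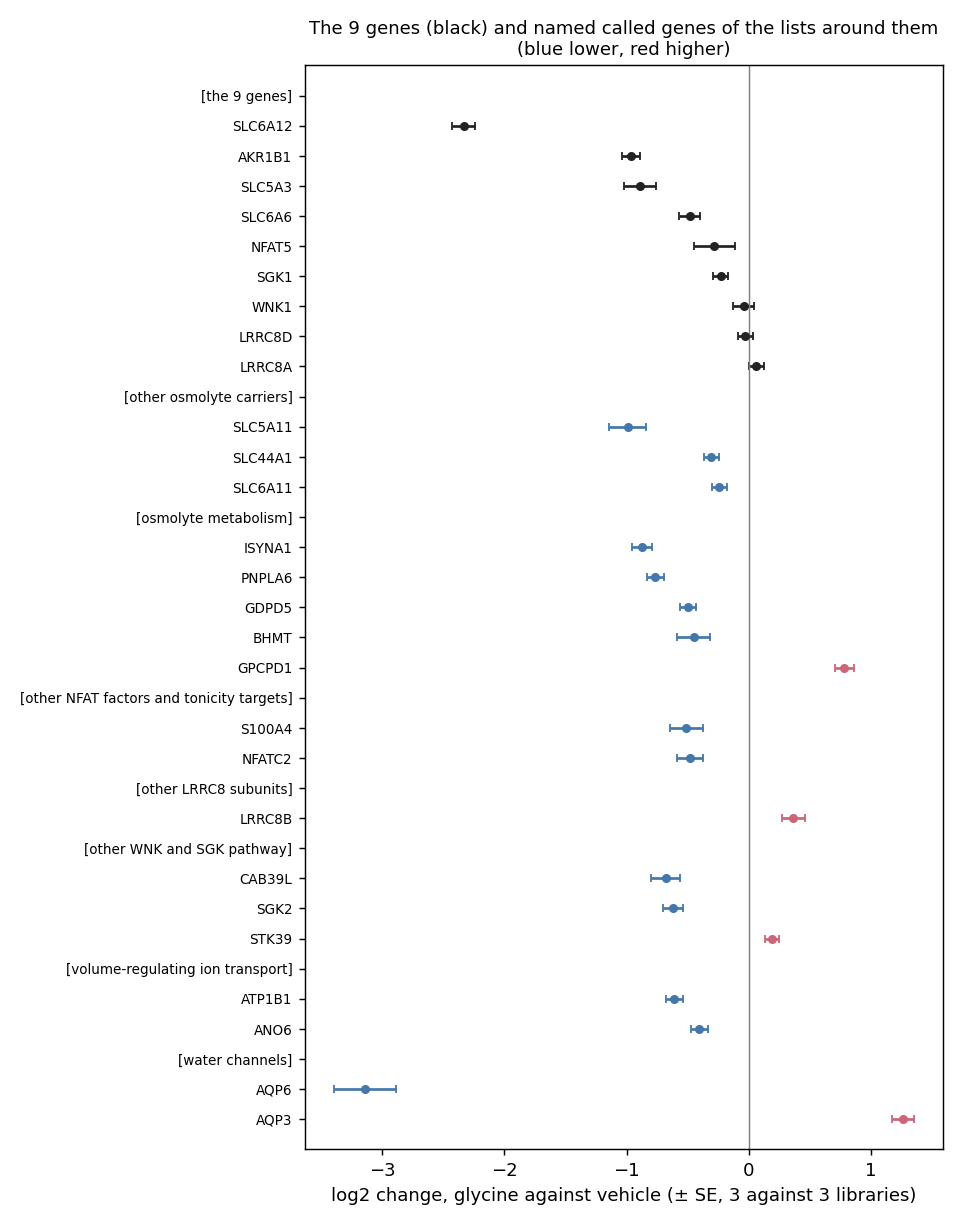
Log2 difference, glycine minus vehicle, with its standard error, for the 9 genes (black) and for the named genes of 7 lists around them that passed the threshold, lower in blue and higher in red. The values run from -3.14 for AQP6, a low gene that passed the filter only through the vehicle libraries, to 1.26 for AQP3, with SLC6A12 at -2.33.

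Per exon length the order of the 9 genes changed at its lower end. On the RPKM scale (CPM divided by the exon length in kilobases), the vehicle order was AKR1B1 (70.6), LRRC8A (14.9), LRRC8D (12.8), WNK1 (11.8), SLC6A6 (6.58), SLC6A12 (6.15), SGK1 (3.75), NFAT5 (2.82) and SLC5A3 (2.59). Neighbours whose libraries overlapped, and so did not differ beyond their spread, were LRRC8D and WNK1, SLC6A6 and SLC6A12, and NFAT5 and SLC5A3. With glycine the first 5 places were the same, followed by SGK1 (3.22), NFAT5 (2.36), SLC5A3 (1.42) and SLC6A12 (1.24). SLC6A12 thus stood at place 6 of 9 with vehicle and at place 9 with glycine, where it overlapped only with SLC5A3.

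**Figure D3:**
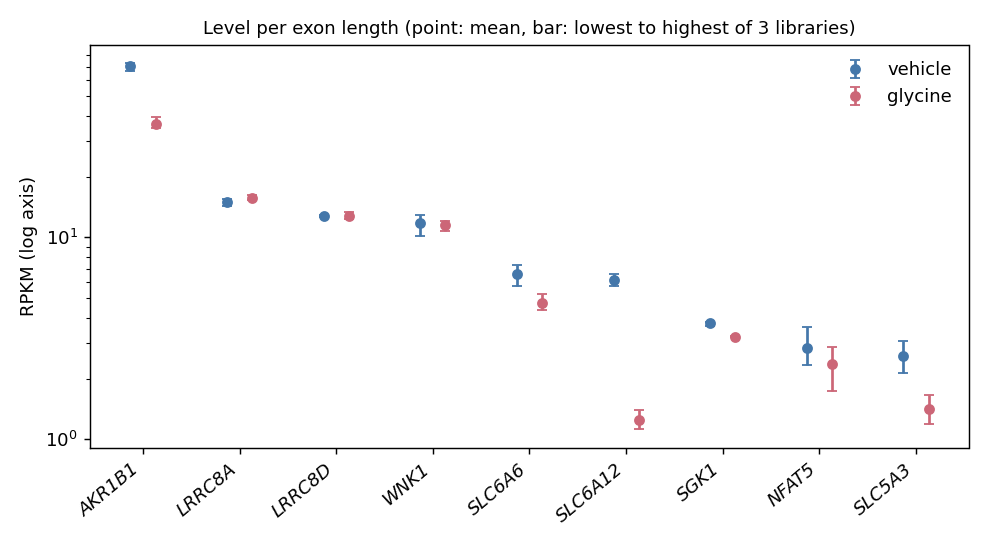
RPKM of the 9 genes on a logarithmic axis, in the order of the vehicle means, with points for the mean and bars from the lowest to the highest of 3 libraries (vehicle blue, glycine red). SLC6A12 goes from a mean of 6.15 to 1.24, while LRRC8A, LRRC8D and WNK1 keep nearly the same level.

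Within each library the balance of the 3 carriers differed between the groups. SLC6A12 made up 35.6%, 44.1% and 41.1% of their summed RPKM in the vehicle libraries and 19.5%, 16.1% and 14.98% in the glycine libraries. SLC6A6 took 42.9% ± 3.67 with vehicle and 64.1% ± 3.10 with glycine (SD, n = 3), and was the largest share in vehicle libraries 1 and 3 and in all 3 glycine libraries. SLC5A3 took 16.9% ± 2.41 and 19.1% ± 1.80, shares that overlapped between the groups. The sum itself was 15.3 ± 0.705 RPKM with vehicle and 7.41 ± 0.592 RPKM with glycine. These shares are ratios within a library and do not depend on its total.

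Among the 5 LRRC8 subunits LRRC8A and LRRC8D together held most of the summed RPKM in either group. LRRC8A was 48.3% ± 0.947 of their summed RPKM with vehicle and 48.6% ± 0.637 with glycine (SD, n = 3). LRRC8D was 41.6% ± 1.29 and 39.2% ± 0.595, and LRRC8B 7.88% ± 0.945 and 9.81% ± 0.443. The LRRC8A share overlapped between the groups, whereas every glycine library was lower than every vehicle library in the LRRC8D share and higher in the LRRC8B share. LRRC8E was 1.93% and 2.13%, and LRRC8C 0.232% and 0.254%. A gene on the other strand lies over 74.3% of the exon length of LRRC8E, and the strand setting of the counts is not known. The sum was 30.8 ± 1.04 RPKM with vehicle and 32.3 ± 1.03 RPKM with glycine.

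**Figure D4:**
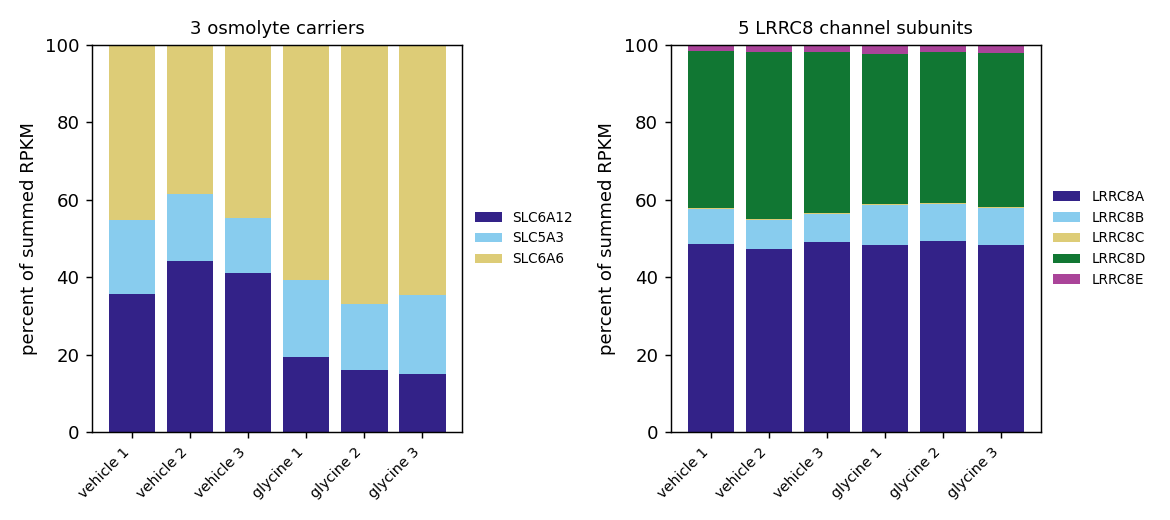
Share of each gene in the summed RPKM of the 3 osmolyte carriers (left) and of the 5 LRRC8 subunits (right), as a percent, in each of the 6 libraries. The SLC6A12 share is 35.6% to 44.1% with vehicle and at most 19.5% with glycine, and the LRRC8A share is 47.3% to 49.3% throughout.

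The widest replicate spread, as the SD of log2 CPM, was found in NFAT5 (0.355), SLC5A3 (0.253), SLC6A6 (0.152) and WNK1 (0.145), which have 16401, 11576, 8254 and 14370 bases of exon. SLC6A12, with 5280 bases of exon, followed closely at 0.135. The libraries differed from each other in how they counted long genes. Over the 769 tested genes with at least 12000 bases of exon, the median deviation of log2 CPM from the group mean was 0.10, 0.02 and -0.11 in vehicle libraries 1 to 3 and 0.04, -0.10 and 0.06 in glycine libraries 1 to 3. NFAT5 deviated by 0.38, -0.14 and -0.24 and by 0.09, -0.41 and 0.32, and SLC5A3 by 0.26, 0.01 and -0.27 and by 0.02, -0.25 and 0.23. The highest and the lowest library of each group were the same for NFAT5, for SLC5A3 and for the median of the long genes. WNK1 shared its highest and lowest vehicle libraries and its lowest glycine library with them. SLC6A6 shared only the highest library of each group, and was lowest in vehicle library 2 and glycine library 1. SGK1, with 9992 bases of exon, deviated by at most 0.04 in size. With the trend with exon length removed from each library, an alternative chosen after seeing the data, the log2 difference was -0.22 ± 0.12 for NFAT5, -0.85 ± 0.098 for SLC5A3 and 0.01 ± 0.064 for WNK1, and SGK1 went to -0.20 ± 0.066.

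**Figure D5:**
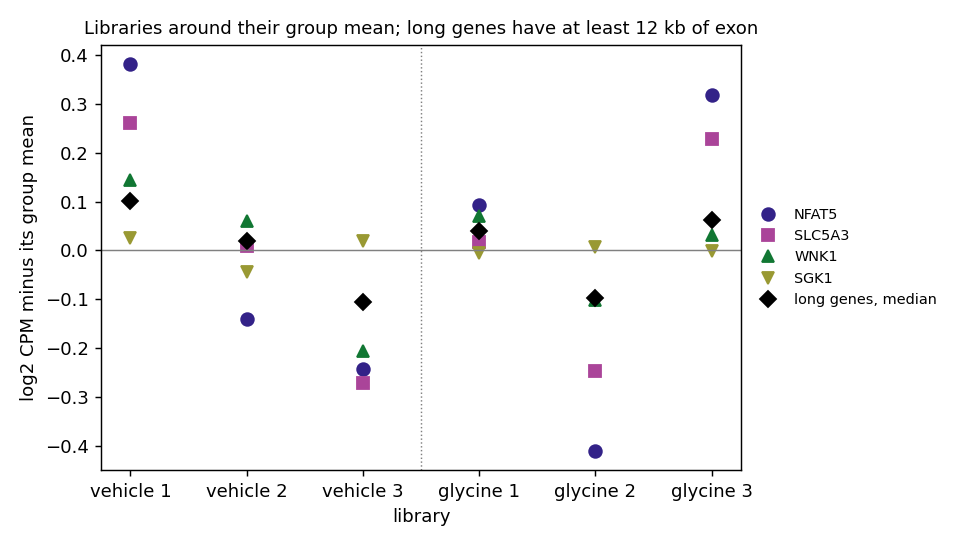
Log2 CPM minus the mean of its group in each library for NFAT5, SLC5A3, WNK1 and SGK1, and the median of 769 genes with at least 12000 bases of exon (black). NFAT5 spans from -0.41 to 0.38, and the long genes from -0.11 to 0.10 with the same libraries at the ends of each group.

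By the shape of their values over the 6 libraries, the tested genes nearest to SLC6A12 were CDH16, AKR1C1 and PLOD2, with a root mean square difference of centred log2 CPM of 0.35, 0.39 and 0.42. These were the least close matches of the 4 genes examined, and the median over 9109 genes was 1.17. SLC5A3 was nearest to FREM1, BCL6 and KLB (0.13 to 0.16, with a median of 0.49 over all). SLC6A6 was nearest to COG3, APP and NUDT4 (0.044 to 0.053, with a median of 0.28). AKR1B1 was nearest to HID1, MT1F and SLC6A9 (0.070 to 0.075, with a median of 0.50), the last being a glycine carrier of the plasma membrane, itself at 36.0 CPM in the vehicle and 20.0 CPM in the glycine libraries. The measure says only that values were alike in these 6 libraries.

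The genes around the 9 were taken by role in 7 lists of 85 genes, with earlier results of these data known, and 65 passed the filter. Of these, 15 were called lower and 4 higher, with a median log2 difference of -0.08. The 15 include AQP6, which passed the filter only through the vehicle libraries, so that its direction was fixed. Over all tested genes 6.54% were called lower and 6.71% higher. These shares are the background for the count of each list below, and nothing is read from the counts. Beside the 3 carriers, 7 of 10 other carriers of osmolytes were tested and 3 fell, with 0 higher and a median of -0.24. SLC5A11, a second sodium-coupled inositol carrier, fell from 6.42 to 3.20 CPM (log2 -0.99 ± 0.15, adjusted p = 0.0007, edgeR). SLC44A1, a choline carrier, fell by 0.31 on the log2 scale (adjusted p = 0.0046, edgeR). SLC6A11, a GABA carrier related to SLC6A12, fell by 0.24 (adjusted p = 0.021, edgeR), though it no longer passed without vehicle library 1 (-0.23) or without glycine library 1 (-0.26), 2 (-0.24) or 3 (-0.24). The most abundant of this list, the amino acid carrier SLC38A2, was at 607 ± 61.7 and 528 ± 64.5 CPM with overlapping groups and did not pass.

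Of 17 genes that make or break down osmolytes, 16 were tested, with 4 lower, 1 higher and a median log2 difference of -0.05. ISYNA1, which makes inositol phosphate from glucose 6-phosphate, fell from 151 ± 11.4 to 83.5 ± 7.56 CPM (log2 -0.87 ± 0.083, adjusted p = 1.51e-05, edgeR), beside -0.89 for the carrier SLC5A3. Of the genes around glycerophosphocholine, another osmolyte, PNPLA6, a phospholipase that produces it, fell by 0.77 (adjusted p = 1.13e-05), with other genes over 11% of its exon length. GDPD5, which degrades it, fell by 0.49 (adjusted p = 0.00027), while GPCPD1, another enzyme that degrades it, rose from 12.5 ± 0.760 to 21.7 ± 1.22 CPM (log2 0.78 ± 0.078, adjusted p = 2.36e-05, all edgeR). BHMT, which uses betaine to remethylate homocysteine, fell by 0.45 (adjusted p = 0.043, edgeR) but passed in only 1 of the 6 fits that left out a library (without glycine library 2), with values from -0.58 to -0.32.

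The other NFAT factors and genes known to respond to tonicity were mostly low or alike. Of 13, 7 were tested, with 2 lower, 0 higher and a median of -0.02. NFATC2, a calcium-regulated relative of NFAT5, fell by 0.48 (adjusted p = 0.0091, edgeR), whereas its relative NFATC3 was at 63.6 ± 10.3 and 64.7 ± 5.28 CPM. Other genes lie over 36.3% of the exon length of NFATC3, 19% on the same strand. S100A4, a calcium-binding protein, fell by 0.51 (adjusted p = 0.024, edgeR), and no longer passed without vehicle library 3 (-0.36) or glycine library 1 (-0.43). The heat shock gene HSPA1B, the most abundant of this list per length, was at 168 ± 14.6 and 169 ± 3.96 CPM, and reads of its near-identical copy HSPA1A cannot be told apart from its own with certainty.

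Of the other 3 LRRC8 subunits, 1 rose. LRRC8B was at 22.0, 17.4 and 16.7 CPM with vehicle and at 25.1, 23.3 and 24.7 CPM with glycine, a log2 difference of 0.37 ± 0.095 (adjusted p = 0.023, edgeR). Its call was lost without vehicle library 2 (0.33) or 3 (0.28) and without glycine library 1 (0.33) or 3 (0.35). LRRC8C, at or under 1.29 CPM, and LRRC8E, at or under 3.24 CPM and with another gene over 74.3% of its exon length, did not pass.

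In the WNK and SGK pathway, 11 of 12 other genes were tested, with 2 lower, 1 higher and a median of 0.02. SGK2, a liver- and kidney-expressed relative of SGK1, fell from 35.4 ± 3.57 to 23.3 ± 0.273 CPM (log2 -0.62 ± 0.082, adjusted p = 0.00027, edgeR), with another gene over 8.34% of its exon length. SGK3 was at 7.90 ± 0.926 and 6.59 ± 0.877 CPM and did not pass. CAB39L, a scaffold that activates the kinases below WNK1, fell by 0.68 (adjusted p = 0.0021, edgeR). STK39, 1 of these kinases, rose from 102 ± 2.72 to 117 ± 2.60 CPM (log2 0.19 ± 0.059, adjusted p = 0.049, edgeR), and lost the call in each of the 6 fits that left out a library, with values from 0.17 to 0.21, and in 6 of the other 10 alternatives. WNK2 and WNK4 overlapped between the groups and did not pass, as WNK1 did not. WNK3, at or under 0.915 CPM, did not pass either (log2 -0.69 ± 0.25, adjusted p = 0.089, edgeR). Every glycine library was below every vehicle library for WNK3, as for 12.9% of all tested genes.

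Of 19 ion transporters and channels of volume control, 15 were tested, with 3 lower, 0 higher and a median of -0.10. ATP1B1, a subunit of the sodium pump, fell by 0.61 (adjusted p = 7.83e-05, edgeR). The sodium gradient that this pump maintains is known to drive SLC6A12, SLC5A3 and SLC6A6, and a link between ATP1B1 and these carriers was not tested. ANO6, a scramblase and chloride channel, fell by 0.40 (adjusted p = 0.0018, edgeR). Of 11 water channels 6 were tested, with 1 lower and 1 higher. AQP3, which passes water and glycerol, rose from 14.0 ± 0.480 to 33.9 ± 3.27 CPM (log2 1.26 ± 0.086, adjusted p = 1.28e-06, edgeR), opposite in direction to SLC6A12. The gene called lower was AQP6, at 1.89 to 2.16 CPM with vehicle and 0.126 to 0.272 CPM with glycine. It passed the filter on low counts only through the vehicle libraries, which fixed its direction, so no test is given for it.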

How the data were processed

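RNA of HepG2 cells was sequenced after 24 h with vehicle or 10 mM glycine (3 libraries each). The authors deposited raw counts of reads per gene, 57500 genes in each library, and the submitters' processing notes name Trimmomatic 0.36, STAR 2.5.2b, featureCounts and Subread 1.5.2 with GRCh38. The strand setting and the annotation release are not given in the sources used here, so reads of overlapping genes may have been assigned in more than 1 way. Gene symbols were found for 56410 genes, and 54707 genes had the same span in GENCODE 29.

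The deposited counts were fitted with edgeR 4.0.16 in R 4.3.3 (quasi-likelihood test, two-sided, filterByExpr at its defaults of 10 counts and 15 in total, TMM scaling, group alone), with Benjamini-Hochberg adjustment over 15492 genes and a threshold of 0.05. Standard errors are the log2 difference divided by the square root of F. CPM used full library totals, and RPKM also the deposited gene length. Replicates varied with a common biological coefficient of 7.29%. The p-values set the difference between the groups against the spread between these libraries. The fit was tested on simulated data.

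The 9 genes and the 7 lists were chosen with earlier results of these data known. Named are the 9 genes, every list gene past the threshold, relatives and neighbours of the 9, the most abundant gene of a list, and, for SLC6A12, SLC5A3, SLC6A6 and AKR1B1, the 3 genes (mean of at least 10 CPM) of nearest pattern. Of the list genes past the threshold, 1 is not reported here. MRPS6 and AKR1B10 were added later, with their values known. Promoter windows are from RefSeq (GRCh38.p14). A planned comparison of protein sequences was not run. Alternatives were other scalings, filters and tests (DESeq2 1.42.0, limma 3.58.1 with voom), a replicate block, leaving out each library and, chosen after seeing the data, removal of the gene length trend by loess (span 0.5), alone or with the block.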

Additional observations from a re-analysis of the deposited data

How the results depend on the processing

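SLC6A12, SLC5A3, SLC6A6 and AKR1B1 were called lower in all 16 alternatives, and SGK1 in 8 of them, as it was lost under the filter of at least 1 count, under both fits with the replicate block and without vehicle library 1 or 3 or any 1 glycine library. NFAT5 passed only under that filter, where 31093 genes were tested, so 5 of the 9 genes were called there too. WNK1 was above 0 in 4 of 16 alternatives, and the other 8 genes kept their sign in all 16. With the gene length trend removed, SGK1 went from -0.23 to -0.20, with and without the block, by more than its replicate SD of 0.027. With fewer libraries, 655 to 1010 genes were called lower and 587 to 926 higher over all genes, and 2 to 3 of the list genes higher. The order of the 9 genes by level was the same with TMM-scaled totals and as TPM. SLC6A13, with at most 9 counts in a library, was too low to test.

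The same replicate number is given to 1 library of each group. The paper states that its cell-based assays had control and treated samples in every run. Whether a shared number marks a shared day is not given in the sources used here. The libraries of a number did not deviate together (correlations of -0.06, -0.03 and -0.003). The main results are therefore unpaired, and the fit with the replicate block is given beside them. With the replicate block, 918 genes were called lower and 866 higher, 4 of the 9 genes and 15 list genes lower and 3 list genes higher, and the log2 differences were -2.33 for SLC6A12, -0.88 for SLC5A3, -0.48 for SLC6A6, -0.96 for AKR1B1, -0.28 for NFAT5 and -0.23 for SGK1.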
